A study of Mus musculus with 6 samples.

Results

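The 54 mitosis genes described here encode the cyclins and kinases that start and end cell division, the kinetochore and centromere, the spindle with its kinesin motors, condensin with other chromosome proteins, and the machinery of cytokinesis. They were chosen by name, as a list of genes known from mitosis, and a gene was taken as measured where at least 1 probe set of the array named it and no other gene. That held for 53 of the 54, out of 18193 genes named in this way. The exception was the B-type cyclin Ccnb1, which is not analysed here. The study grew primary fibroblasts of the dermis, which make the matrix of the skin, from explants of B6 mice aged 0 to 2 days and of both sexes, and used them at passage 4. In the treated group, 3 cultures received 5 µM 5-aza-2'-deoxycytidine for 96 hours, renewed every 24 hours, and then 24 hours of medium without the drug. The control group was 3 untreated cultures, also at passage 4, and each culture was measured on 1 Affymetrix expression array. The labels give no vehicle for the controls, and the explants were mixed in sex and made separately for each biological replicate, so each culture is a primary population and not a clone.

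5-aza-2'-deoxycytidine, or decitabine, resembles cytidine, enters DNA as cells replicate it and traps the DNA methyltransferases there. Most mitosis genes are transcribed late in the cell cycle, in G2 and M phase, and stay low in cells that do not divide. In resting cells the DREAM complex, in which the MuvB proteins sit with a pocket protein, holds them off. In dividing cells MuvB works with Mybl2 and Foxm1 as an activator, and many of these promoters are bound at a short sequence called the CHR element and at CCAAT boxes, the binding sites of NF-Y. A bulk array reads the sum over a culture, so fewer cells in mitosis and less RNA per cell cannot be told apart.

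Values below are MAS5 signals scaled so that every array had the same trimmed mean, 193.2 signal units. Each log2 change is treated minus control on the scale of log2(signal + 9.66), given with its standard error, and adjusted p-values come from limma with Benjamini-Hochberg adjustment over the 23388 probe sets tested, with n = 3 arrays per group. Where several probe sets of a gene were tested, the brightest on average stands for the gene, and a gene is called at an adjusted p under 0.05. Pairwise correlations over the tested probe sets were 0.9716 to 0.9742 for arrays of the same group, and 0.8631 to 0.8827 for a treated and a control array. The deposited trimmed means were 149.2, 207.9 and 209.4 on treated arrays 1 to 3, against 223.9, 179.1 and 189.9 on control arrays 1 to 3. The 3' probe set of Actb, divided by its 5' one to gauge how whole the RNA and its label were, gave 1.179, 1.155 and 1.141 on treated arrays and 1.263, 1.255 and 1.275 on control arrays. The same ratio for Gapdh was 0.7472, 0.7918 and 0.7535 on treated arrays and 0.751, 0.7433 and 0.7212 on control arrays. The groups did not overlap in the ratio of Actb and overlapped in that of Gapdh, and their part in the results below was not tested.

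One control culture stood apart from the others in these genes. Over the 53 measured members the median signal was 143.1, 145.3 and 140.8 on treated arrays 1 to 3, and 321.6, 292.8 and 218.2 on control arrays 1 to 3. The treated arrays were thus close together, and control 3 lay between them and the other controls. Control 3 was the lowest control array for 45 of the 53 members, control 2 for 7 and control 1 for 1, where over all 12194 genes tested control 3 was the lowest for 36.7%. The median member was 0.44 lower on control 3 than on control 1 on the log2 scale, against a median of 0.01 lower over all genes. Accordingly the members varied more among controls (median SD of log2 signal 0.27) than among treated cultures (0.16), whereas over all genes these medians were 0.14 for treated and 0.16 for control arrays. The number of members called lower is given with and without control 3, and most other counts include it.

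Most of the mitosis genes were lower after treatment, in each of the 5 groups of functions. Of the 53 measured, 38 were called lower, 15 were not called and 0 were called higher, and no member was higher at an unadjusted p under 0.05 in limma. The share called lower was 71.7%, against 21.6% of all 12194 genes tested, and the share of all genes called higher was 19.5%. The median log2 change of the members was -0.76, against -0.00 over all genes. Among the 38 the mean treated signal was between 22.5% and 72.2% of the mean control signal, and 19 were at least 2-fold lower, as were 6.05% of all genes. All 3 treated arrays lay below all 3 control arrays for 38 members, against 27.4% of all genes. These were not quite the same as the 38 called: Espl1 had groups apart without a call, and Kif11 was called although one treated array lay above control 3. Without control replicate 3 the number called lower was 40, of which 36 were among the 38, and the background was then 18.1%. Without control replicate 1 it was 31 (background 17.2%), and without control replicate 2 it was also 31 (background 18%). All 53 had passed the filter on dim probe sets, 46 of them on all 6 arrays. The other 7 passed on all control arrays and on fewer treated arrays. Among them Ttk passed on control arrays alone, so it was not tested when a control array was left out and is missing from those counts. Its call, counted among the 38 and the 19, is no support.

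**Figure D1:**
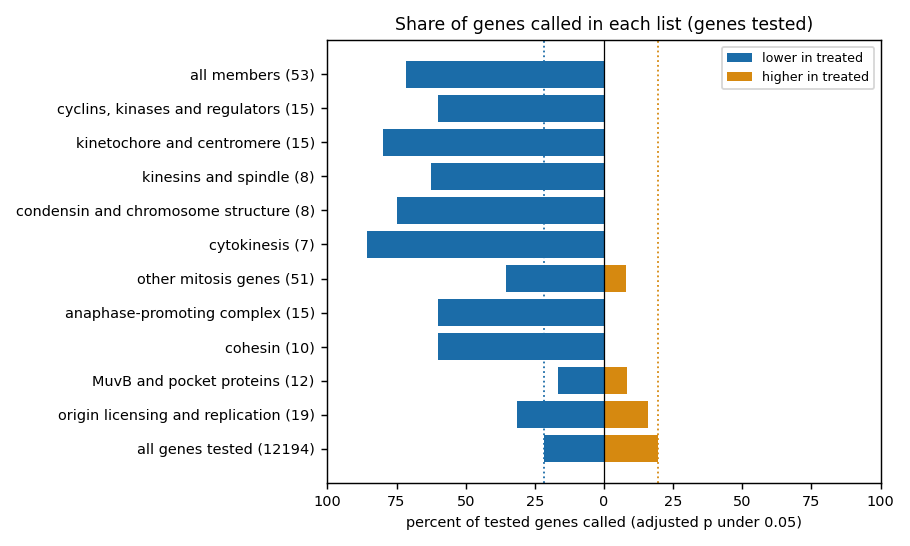
Percent of tested genes called lower (bars to the left) and higher (bars to the right) in treated cultures, at an adjusted p under 0.05, for the mitosis genes, their 5 groups, related gene lists and all genes, with the number tested in brackets. Dotted lines mark all genes tested, 21.6% lower and 19.5% higher, and the members reach 71.7% lower.

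The median log2 change was below 0 in each of the 5 groups. It was -1.02 in cytokinesis (6 of 7 lower), -0.97 in kinetochore and centromere (12 of 15), -0.83 in condensin and chromosome structure (6 of 8), -0.70 in kinesins and spindle (5 of 8) and -0.68 in cyclins, kinases and their regulators (9 of 15). Within each group the changes spread widely, from -1.93 for Bub1b to 0.10 for Mad2l1 in the kinetochore group and from -1.38 for Nusap1 to 0.21 for Ckap2 in the spindle group. The differences between groups of functions were not tested.

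**Figure D2:**
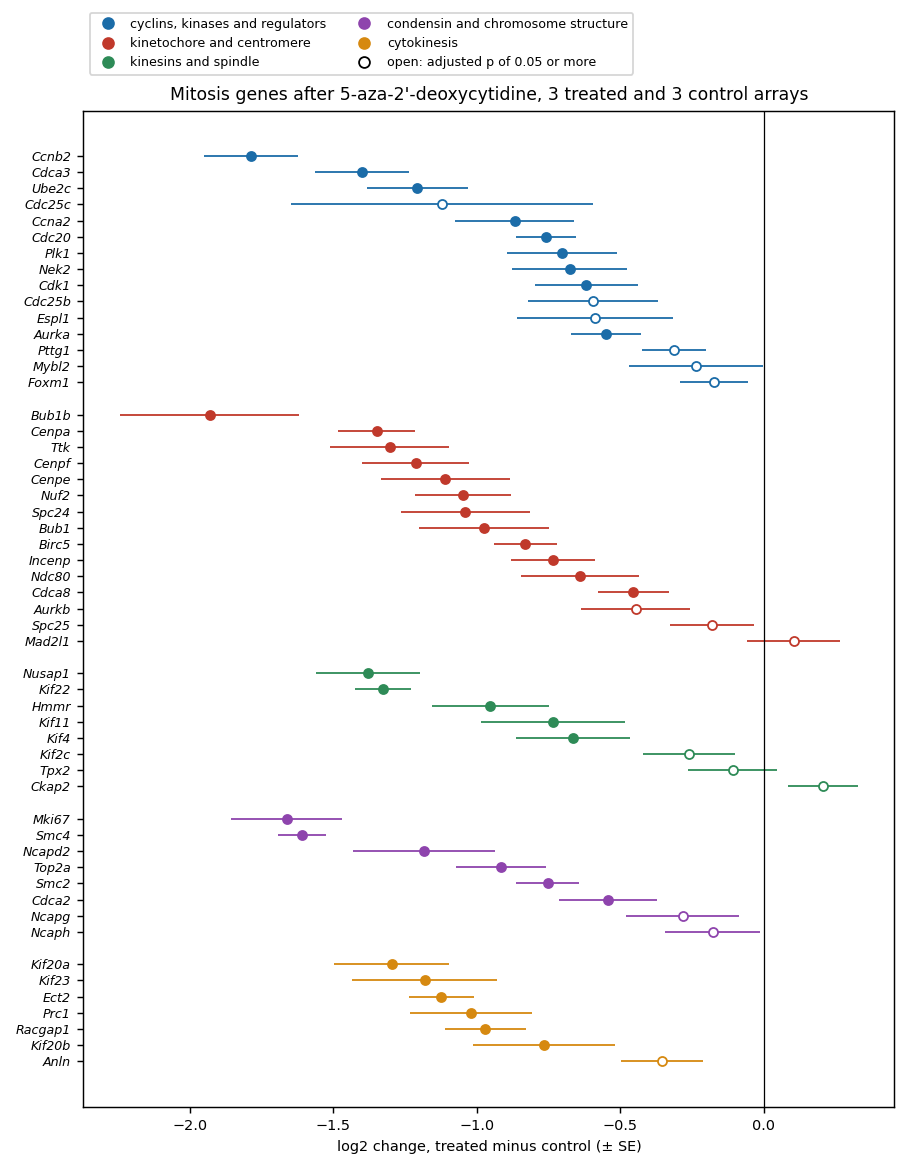
Log2 change, treated minus control, of each of the 53 measured mitosis genes with its standard error, ordered within the 5 groups of functions. Filled points were called and open points were not, and only Mad2l1 (0.10) and Ckap2 (0.21) lie above 0.

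The promoters of these genes carry the sequence features known from genes of late cell cycle phases, and a few are printed because they belong to the members with the smallest p of their group. RefSeq promoters of the assembly GRCm38.p6, from 250 bases before to 50 bases after the start, were found by symbol for 44 of the 54 members. The CHR element was searched as TTTGAA and the CCAAT box as CCAAT, each on both strands, and matches may overlap. The sequences below are the 250 bases before the start, 5' to 3' on the strand of the gene, with both motifs in capitals in either orientation. Each is the promoter of the member with the smallest p in its group that had an entry, in the order of the groups from cyclins to cytokinesis. For contrast they are followed by Ckap2 and Mad2l1, the members with the highest changes.
Ccnb2 (chr9:70421555-70421804, minus strand): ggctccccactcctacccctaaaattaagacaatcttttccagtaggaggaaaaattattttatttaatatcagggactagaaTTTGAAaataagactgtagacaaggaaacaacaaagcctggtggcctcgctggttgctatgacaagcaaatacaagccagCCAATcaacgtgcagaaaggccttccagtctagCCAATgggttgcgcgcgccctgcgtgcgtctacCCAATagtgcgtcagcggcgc
Cenpa (chr5:30666636-30666885, plus strand): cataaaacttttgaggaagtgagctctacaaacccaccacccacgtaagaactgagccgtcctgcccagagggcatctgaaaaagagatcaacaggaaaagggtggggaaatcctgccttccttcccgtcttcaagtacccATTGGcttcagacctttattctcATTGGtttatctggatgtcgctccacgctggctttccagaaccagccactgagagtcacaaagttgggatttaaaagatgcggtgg
Kif22 (chr7:127042421-127042670, minus strand): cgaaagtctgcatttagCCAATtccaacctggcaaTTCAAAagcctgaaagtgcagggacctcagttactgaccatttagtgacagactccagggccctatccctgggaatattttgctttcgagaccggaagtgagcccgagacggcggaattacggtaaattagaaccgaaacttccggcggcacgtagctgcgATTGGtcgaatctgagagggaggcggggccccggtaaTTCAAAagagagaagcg
Mki67 (chr7:135716380-135716629, minus strand): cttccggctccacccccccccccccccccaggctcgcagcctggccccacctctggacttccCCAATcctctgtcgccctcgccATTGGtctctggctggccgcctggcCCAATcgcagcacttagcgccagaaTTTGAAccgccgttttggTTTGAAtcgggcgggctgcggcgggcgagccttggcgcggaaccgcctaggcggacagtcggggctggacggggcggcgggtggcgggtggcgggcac
Ect2 (chr3:27153879-27154128, minus strand): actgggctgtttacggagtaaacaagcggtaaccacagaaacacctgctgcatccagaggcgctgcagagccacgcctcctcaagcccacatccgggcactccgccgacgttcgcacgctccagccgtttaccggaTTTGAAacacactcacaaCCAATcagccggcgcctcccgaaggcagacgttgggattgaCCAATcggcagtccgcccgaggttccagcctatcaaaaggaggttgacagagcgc
Ckap2 (chr8:22185820-22186069, minus strand): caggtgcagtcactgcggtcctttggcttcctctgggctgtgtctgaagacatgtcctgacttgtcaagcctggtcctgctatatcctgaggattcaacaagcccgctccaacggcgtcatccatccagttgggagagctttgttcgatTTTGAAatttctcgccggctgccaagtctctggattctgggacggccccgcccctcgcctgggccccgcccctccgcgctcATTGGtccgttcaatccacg
Mad2l1 (chr6:66534971-66535220, plus strand): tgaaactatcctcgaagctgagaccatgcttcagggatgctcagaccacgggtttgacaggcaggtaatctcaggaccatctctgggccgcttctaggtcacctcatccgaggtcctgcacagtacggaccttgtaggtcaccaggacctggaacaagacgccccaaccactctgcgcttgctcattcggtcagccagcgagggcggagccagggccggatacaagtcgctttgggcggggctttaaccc

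TTTGAA was found in 32 of the 44 promoters (72.7%), against 11.8% of the 9848 tested genes with an entry and 18.1% of 27025 promoters taken once per gene. CCAAT was found in 33 (75%), against 38.4% of tested genes and 37.9% of all promoters. Both were present in 28 (63.6%), against 4.63% of tested genes and 7.12% of all. Of the 32 with TTTGAA, 28 had it within 50 bases of the start, on either side. This distance was not measured in the promoters of other genes, so it has no background. The match nearest to the start began at base 5 of the transcript in Ccnb2, at base 17 in Cenpa and at base 40 in Ect2, outside the printed sequences, while in Kif22 it began 17 bases before the start and in Mki67 98 bases before it. Ckap2, which was not lower, also carries both motifs. Mad2l1 had neither motif in the 300 bases, which says only that these letters are absent from this window. The median promoter of the members had 23.5 CpG dinucleotides and 59% G and C, close to the 20 CpG and 60.7% of the tested genes.

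**Figure D3:**
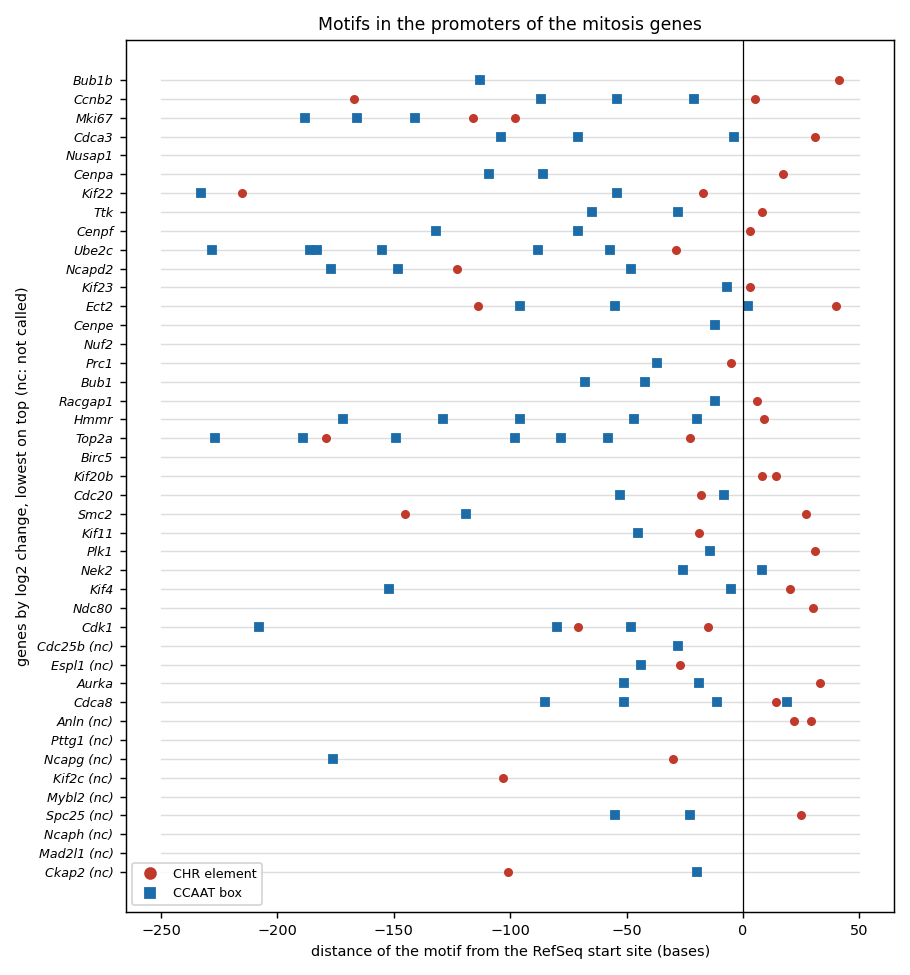
Positions of the CHR element (circles) and the CCAAT box (squares) from 250 bases before to 50 bases after the RefSeq start, in the 43 measured mitosis genes with a promoter entry, ordered by log2 change with the lowest on top and with genes not called marked nc. Circles gather around the start and squares before it.

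Members with and without the motif were both mostly lower. Among measured members, 26 of 32 with TTTGAA were called lower (median log2 change -0.84), and 6 of 11 without it (median -0.68). Outside the members, 21.6% of 1130 tested genes with TTTGAA were called lower, and 24.3% of 428 genes with both motifs, against 21.1% of all 9805 tested genes with an entry other than the members. A form of the E2F site, TTTGGCGC or TTTCCCGC, was found in 2 of 44 member promoters (4.55%), in 7 of 16 promoters of the list of origin licensing and replication genes (43.8%) and in 2.97% of tested genes. Such matches describe the sequences and show no binding.

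Cyclins, kinases and their regulators start the division and take the cell out of it. Cdk1 with cyclin A or B drives entry into mitosis, and the anaphase-promoting complex, with its activator Cdc20 and its ubiquitin-conjugating enzyme Ube2c, ends it by destroying the cyclins and securin. In this group 9 of 15 were called lower. Ccnb2, a B-type cyclin, had signals of 107, 98.1 and 109 in treated cultures, against 468, 407 and 299 in controls. Its printed promoter carries 3 CCAAT boxes, and its lowest control stood far above its highest treated array (log2 change -1.79 ± 0.16, adjusted p = 3.17e-05). Cdca3, an adaptor that triggers the degradation of the Cdk1 inhibitor Wee1, had 143, 123 and 131 in treated cultures, against 466, 349 and 297 in controls (log2 change -1.40 ± 0.16, adjusted p = 0.000142). Cdc20 had 596, 576 and 620.0 in treated cultures, against 1109, 1084 and 874 in controls (log2 change -0.76 ± 0.10, adjusted p = 0.000398). In Cdca3 and Cdc20 the groups were apart, with control 3 the nearest control.

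The other 6 genes called in this group were also lower in the mean. Ube2c changed by -1.21 ± 0.18 (adjusted p = 0.000529), with means of 209 ± 26.0 in treated cultures and 501 ± 118 in controls (SD, n = 3 each). Ccna2, the A-type cyclin of S and G2 phase, changed by -0.87 ± 0.21 (adjusted p = 0.00844). Aurka, the kinase of the spindle poles, changed by -0.55 ± 0.12 (adjusted p = 0.00588), Plk1, a kinase that acts from mitotic entry to cytokinesis, by -0.70 ± 0.19 (adjusted p = 0.0165) and Nek2, which separates the centrosomes, by -0.68 ± 0.20 (adjusted p = 0.0243). Cdk1 itself had 353, 393 and 429 in treated cultures, against 761, 657 and 442 in controls, with control 3 close to treated array 3 (log2 change -0.62 ± 0.18, adjusted p = 0.0217). The call of Cdk1 was lost without control replicate 1 (log2 change -0.45, adjusted p = 0.0729), without control replicate 2 (-0.56, adjusted p = 0.0688) and without treated replicate 1 (-0.55, adjusted p = 0.0759). That of Nek2 was lost without control replicate 1 (-0.64, adjusted p = 0.0749), control replicate 3 (-0.68, adjusted p = 0.0606), and also without treated replicate 3 (-0.47, adjusted p = 0.0632).

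Among the 6 of this group that were not called were both activators of transcription. Foxm1 had 248, 216 and 226 in treated cultures, against 289, 246 and 247 in controls (log2 change -0.17 ± 0.12, adjusted p = 0.286), and its highest treated array lay above its 2 lower controls. Mybl2, also called B-Myb, had 72.1, 55.3 and 75.4 in treated cultures, against 79.0, 105 and 62.9 in controls (-0.24 ± 0.23, adjusted p = 0.47), with overlapping groups. Securin, Pttg1, which holds separase inactive, just missed the threshold with 1459, 1314 and 1161 in treated cultures, against 1709, 1761 and 1424 in controls (-0.31 ± 0.11, adjusted p = 0.0505), and it was called without control replicate 3 (-0.41, adjusted p = 0.0184) and without treated replicate 1 (-0.39, adjusted p = 0.0335). In all 3 the groups overlapped at these probe sets. A dimmer probe set of Pttg1 had groups apart but was not called either (-0.35, adjusted p = 0.05002).

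Separase itself, Espl1, had 59.1, 30.4 and 56.4 in treated cultures, against 87.3, 74.4 and 66.1 in controls (-0.59 ± 0.27, adjusted p = 0.119). The Cdk1-activating phosphatase Cdc25b had 52.7, 81.2 and 60.2 in treated cultures, against 103, 124 and 81.1 in controls (-0.59 ± 0.23, adjusted p = 0.0641) and passed the threshold with treated replicate 2 left out (-0.75, adjusted p = 0.0412) and with control replicate 3 left out (-0.74, adjusted p = 0.0485). Its relative Cdc25c had 4.01, 34.9 and 58.7 in treated cultures, against 68.6, 71.0 and 58.1 in controls (-1.12 ± 0.53, adjusted p = 0.125). One treated array of Cdc25c was far below the others. Without treated replicate 3 Cdc25c was called (-1.61, adjusted p = 0.0381). It then passed the filter on control arrays alone, so that call is no support.

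**Figure D4:**
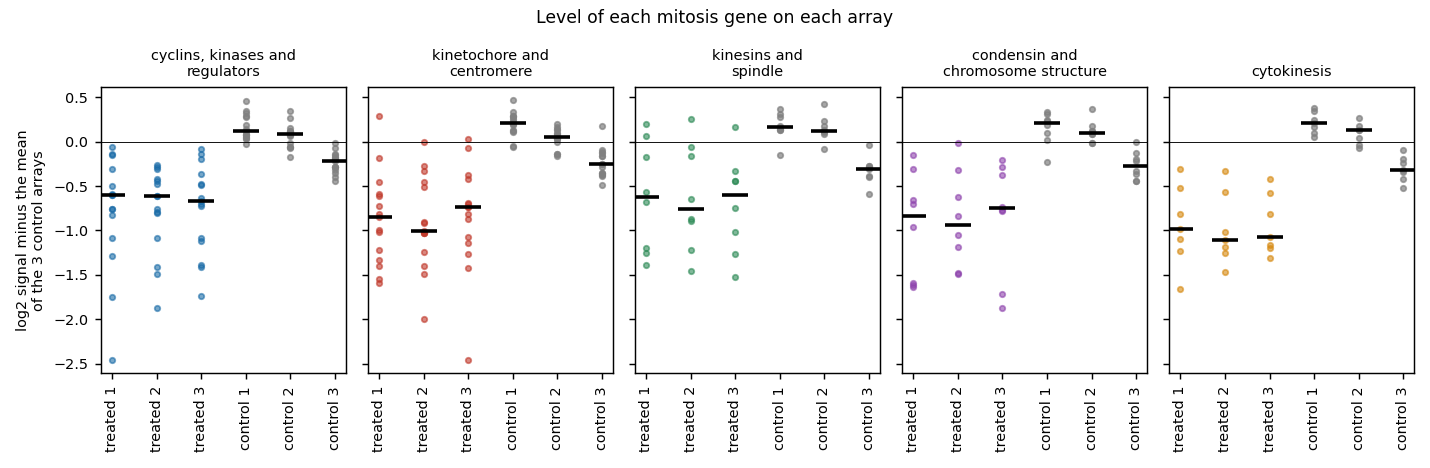
Log2 signal of each measured mitosis gene on each array, minus the mean of its 3 control arrays, in the 5 groups of functions, with treated arrays coloured, control arrays grey and the median of the group as a black bar. In each group the medians of the treated arrays lie below all control medians, and control 3 is the lowest control.

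The kinetochore is the protein plate on the centromere that holds spindle microtubules, and the checkpoint proteins on it delay anaphase until all chromosomes are attached. Here 12 of 15 genes were called lower. Cenpa, the histone H3 variant that marks centromeres, had 163, 143 and 141 in treated cultures, against 465, 355 and 368 in controls (log2 change -1.35 ± 0.13, adjusted p = 4.98e-05). Birc5, survivin, a subunit of the chromosomal passenger complex, had 249.5, 241 and 272 in treated cultures, against 496, 475 and 409.7 in controls (-0.83 ± 0.11, adjusted p = 0.000299), and Cenpf, a large protein of the outer kinetochore, had 66.4, 99.3 and 96.0 in treated cultures, against 233, 232 and 176 in controls (-1.21 ± 0.19, adjusted p = 0.000761). In these 3 probe sets every control was above every treated array, and for Cenpa control 2, not control 3, was the lowest control. A dimmer probe set of Cenpf changed by -0.10 (adjusted p = 0.8) and was not called.

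The checkpoint kinases Bub1b, Ttk and Bub1 were called lower. Bub1b, BubR1, which inhibits Cdc20, had 53.6, 30.3 and 19.4 in treated cultures, against 192, 155 and 113 in controls, the lowest log2 change of all members (-1.93 ± 0.31, adjusted p = 0.000998). Only 1 of its treated arrays was above the array median. Ttk, Mps1, the kinase at the top of the checkpoint, changed by -1.30 ± 0.21 (adjusted p = 0.000907) and was below the array median on every treated array. It passed the filter only through the group where it was higher, so its call is no support. Bub1 changed by -0.97 ± 0.23 (adjusted p = 0.00754) and the motor Cenpe by -1.11 ± 0.22 (adjusted p = 0.00356). Mad2l1, Mad2, the checkpoint protein that binds Cdc20, was not called, with 455, 368 and 378 in treated cultures, against 453, 389 and 288 in controls (0.10 ± 0.16, adjusted p = 0.656). Its groups overlapped.

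In a pair of complexes most subunits were called lower and 1 was not called. In the 4-subunit Ndc80 complex, which binds microtubules directly, Nuf2 changed by -1.05 ± 0.17 (adjusted p = 0.000934), Spc24 by -1.04 ± 0.22 (adjusted p = 0.00509) and Ndc80 by -0.64 ± 0.21 (adjusted p = 0.0341), while Spc25 had 188, 177 and 205 in treated cultures, against 247, 231 and 176 in controls (-0.18 ± 0.15, adjusted p = 0.379). Control 3 of Spc25 lay below all its treated arrays. In the chromosomal passenger complex, which corrects wrong attachments, Incenp changed by -0.74 ± 0.15 (adjusted p = 0.00327; -0.38 and -0.24 at dimmer probe sets, not called) and Cdca8, borealin, by -0.45 ± 0.12 (adjusted p = 0.0163). Its kinase Aurkb had 98.0, 94.3 and 104 in treated cultures, against 171, 147 and 104 in controls (-0.45 ± 0.19, adjusted p = 0.0945), with treated 3 level with control 3, and was called without control replicate 3 (-0.63, adjusted p = 0.0201). The call of Ndc80 was lost without treated replicate 1 or 3 (adjusted p = 0.0864 and 0.0887) and without control replicate 1 or 2 (0.126 and 0.103). That of Cdca8 was lost without treated replicate 1 (0.0632) or control replicate 1 (0.0599). Differences between subunits were not tested.

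Kinesins move along microtubules or take them apart, and the other proteins of this group build and stabilise the spindle. Of 8, 5 were called lower. Kif22, a motor that pushes chromosome arms towards the spindle equator, had 478, 413 and 475 in treated cultures, against 1260.2, 1086 and 1121 in controls (log2 change -1.33 ± 0.10, adjusted p = 7.71e-06). Its lowest control was control 2. Nusap1, which bundles spindle microtubules, had 104, 118 and 94.2 in treated cultures, against 351, 312 and 218 in controls (-1.38 ± 0.18, adjusted p = 0.000294), and Hmmr, a spindle assembly protein that also binds hyaluronan, had 119, 179.7 and 137 in treated cultures, against 357, 305 and 214 in controls (-0.95 ± 0.20, adjusted p = 0.00491). Kif11, the motor that pushes the spindle poles apart, changed by -0.73 ± 0.25 (adjusted p = 0.0432), and Kif4, a chromosome-bound motor, by -0.66 ± 0.20 (adjusted p = 0.0257). The call of Kif11 was lost without treated replicate 2 or 3 (adjusted p = 0.107 and 0.0905) or control replicate 2 (0.132). That of Kif4 was lost without treated replicate 1 or 2 (adjusted p = 0.0639 and 0.0787) or control replicate 2 (0.0763).

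The 3 spindle genes not called were Kif2c, Tpx2 and Ckap2. Ckap2, a microtubule-binding protein, was the highest of all members, with 604, 625 and 588 in treated cultures, against 579, 573 and 432 in controls (0.21 ± 0.12, adjusted p = 0.212). All its treated arrays lay above all its controls, as in no other representing probe set of a member. Tpx2, which activates Aurka on the spindle, had 346, 318 and 262 in treated cultures, against 376, 361 and 268 in controls (-0.11 ± 0.15, adjusted p = 0.625), with overlapping groups. Kif2c, a kinesin that takes microtubules apart at centromeres, had 187, 188 and 153 in treated cultures, against 233, 241 and 169 in controls (-0.26 ± 0.16, adjusted p = 0.24) at its brightest probe set.

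Condensin is a ring of 2 SMC proteins and 3 other subunits that compacts chromosomes, and Top2a and Mki67 also shape mitotic chromosomes. In this group 6 of 8 were called lower. Smc4, a core subunit of both condensins, had 628, 699 and 596 in treated cultures, against 2005, 1947 and 1968 in controls (log2 change -1.61 ± 0.08, adjusted p = 9.07e-07, the smallest p of the members). Its lowest control was control 2. Mki67, the antigen used to stain dividing cells, had 133, 145 and 109 in treated cultures, against 533, 466 and 312 in controls (-1.66 ± 0.19, adjusted p = 0.000137), and Smc2, the partner of Smc4, had 377, 332 and 349 in treated cultures, against 644, 639 and 525 in controls (-0.75 ± 0.11, adjusted p = 0.000535). The groups were apart in all 3.

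Among the other subunits, Ncapd2 changed by -1.18 ± 0.25 (adjusted p = 0.00431), whereas Ncapg had 84.3, 83.4 and 91.2 in treated cultures, against 89.7, 140.4 and 96.6 in controls (-0.28 ± 0.20, adjusted p = 0.299) and Ncaph had 330.2, 363 and 281 in treated cultures, against 419.8, 417 and 282 in controls (-0.18 ± 0.17, adjusted p = 0.44). The groups of Ncapg and of Ncaph overlapped. Top2a, the topoisomerase that untangles sister chromatids, changed by -0.91 ± 0.16 (adjusted p = 0.00136). Cdca2, which brings a phosphatase to chromosomes at anaphase, changed by -0.54 ± 0.17 (adjusted p = 0.0319), a call lost when control replicate 1 (-0.42, adjusted p = 0.115), control replicate 2 (-0.55, adjusted p = 0.067), treated replicate 1 (-0.46, adjusted p = 0.0981) was left out, or else treated replicate 2 (-0.50, adjusted p = 0.0836).

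Cytokinesis divides the cell with a contractile ring that is placed by the central spindle. Of its 7 genes, 6 were called lower. Ect2, the exchange factor that activates RhoA at the division plane, had 184, 182 and 174 in treated cultures, against 454, 384 and 377 in controls (log2 change -1.12 ± 0.11, adjusted p = 5.35e-05). Racgap1, the centralspindlin subunit that recruits Ect2, had 195, 168 and 161 in treated cultures, against 414, 340.1 and 303 in controls (-0.97 ± 0.14, adjusted p = 0.000518), and Kif20a, a kinesin of the central spindle, had 99.3, 83.0 and 102 in treated cultures, against 322, 253 and 182 in controls (-1.30 ± 0.20, adjusted p = 0.000759). The groups were apart in each, and the treated arrays of Ect2 differed by little. Kif23, the motor subunit of centralspindlin, changed by -1.18 ± 0.25 (adjusted p = 0.00476), Prc1, which cross-links central spindle microtubules, by -1.02 ± 0.21 (adjusted p = 0.00432) and Kif20b by -0.76 ± 0.25 (adjusted p = 0.0345). The call of Kif20b was lost without treated replicate 2 (0.1002 after adjustment), control replicate 1 (0.094) or control replicate 2 (0.118). Anln, anillin, a scaffold of the contractile ring, was not called with 384, 377 and 354 in treated cultures, against 556, 522 and 376 in controls (-0.35 ± 0.14, adjusted p = 0.0773). Its control 3 lay below 2 of its treated arrays, and without control replicate 3 it was called (-0.52, adjusted p = 0.00405).

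Several members were read by more than 1 probe set. In all 123 probe sets named a member alone, 90 of these were tested, and 57 were called lower, 0 higher and 33 not called, against 20.3% of all tested probe sets called lower. Of 25 members with more than 1 tested probe set, all tested probe sets were lower in 9, some were lower in 11 and none was called in 5, and in 0 were they called in opposite directions. The 3 probe sets of Smc4 changed by -1.61, -1.31 and -1.53. By contrast the call of Kif2c turned on the probe set: 2 dimmer ones were lower, by -1.57 ± 0.20 (adjusted p = 0.000236) and -1.11 ± 0.24 (adjusted p = 0.00521). The second of these had 72.5, 70.5 and 103 in treated cultures, against 194, 252 and 129.7 in controls, so its groups were apart, and those of the brightest probe set were not. Ncaph was likewise called at a dimmer probe set (-0.66, adjusted p = 0.0354). The dimmer one of Aurkb (-0.86, adjusted p = 0.0301) was above the array median on control arrays alone. So were the probe set of Ttk and dimmer ones of Cenpe (-1.38) and Smc2 (-0.77), also called lower. These passed the filter only through the group where they were higher, and their calls, counted among the 57, are no support. That of Cenpe also counts towards the 9. In the reverse case, members called at the brightest probe set had others that were not called: besides Cenpf and Incenp these were Cdca2 (-0.19), Cdca3 (-0.46), Cdca8 (-0.70), Smc2 (-0.60), Nek2 (-0.32 and 0.17) and Ncapd2 (0.44). That probe set of Ncapd2 passed the filter on treated arrays alone, and all its treated arrays lay above all its controls. Tpx2 was called at none of its 4, which changed by -0.11, 0.40, 0.38 and -0.14. For 10 members the name of the representing probe set ends in _s_at or _x_at, which marks probes that may also match other transcripts or sequences. Those of Kif22, Cdc20, Aurkb and Ncaph end in _x_at.

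**Figure D5:**
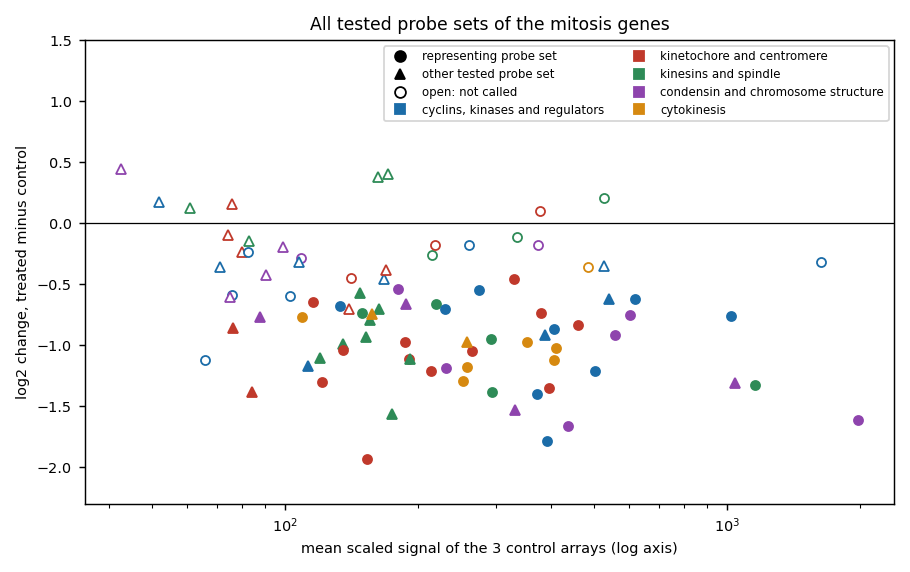
Log2 change, treated minus control, of the 90 tested probe sets of the mitosis genes against the mean scaled signal of the 3 control arrays, on a log axis, with circles for the representing and triangles for other probe sets and open symbols for those not called. All 57 called probe sets lie below 0, and the open ones lie on both sides of it.

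Other genes of mitosis, from a list of genes outside the 54, were called in both directions. Of 51 tested, 18 were called lower (35.3%, against 21.6% of all genes) and 4 higher (7.84%, against 19.5%). The share called higher was thus below the background. The median log2 change was -0.32. Cenpm, Kif18a and Ska1, counted among the 18, passed the filter on control arrays alone, so their calls are no support. Plk4, the kinase of centriole duplication, had 133, 111 and 137 in treated cultures, against 355, 273 and 300.4 in controls (log2 change -1.22 ± 0.14, adjusted p = 0.000131). The 4 higher ones included Gtse1, a microtubule protein that also binds p53, with 286, 247 and 248 in treated cultures, against 121, 119 and 104 in controls (1.12 ± 0.13, adjusted p = 0.000136), and Zwint, a kinetochore protein, with 2065, 1981 and 1823 in treated cultures, against 1192, 1257 and 1075 in controls (0.73 ± 0.09, adjusted p = 0.000165). The groups did not overlap in any of the 3. The cytokinesis kinase Cit (0.99 ± 0.14, adjusted p = 0.000392) and the kinetochore protein Zw10 (0.64 ± 0.16, adjusted p = 0.0121) were also higher.

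Subunits of the anaphase-promoting complex, the ubiquitin ligase that Cdc20 activates, were called in 1 direction: 9 of 15 lower and 0 higher, with a median log2 change of -0.34 and a lowest one of -0.76. Cdc23 changed by -0.76 ± 0.12 (adjusted p = 0.000853), Cdc26 by -0.67 ± 0.08 (adjusted p = 0.000226) and Anapc4 by -0.43 ± 0.07 (adjusted p = 0.00129). For cohesin, the ring that holds sister chromatids together, 6 of 10 genes of its subunits and regulators were lower and 0 higher (median -0.53). Pds5b changed by -1.01 ± 0.11 (adjusted p = 7.43e-05), Stag2 by -0.84 ± 0.08 (adjusted p = 3.53e-05) and Smc1a by -0.70 ± 0.10 (adjusted p = 0.000519). Both shares were 60%, above the background of 21.6%.

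Of 12 genes of MuvB, the pocket proteins and their E2F partners, 2 were lower (16.7%, against 21.6% of all genes) and 1 higher (8.33%, against 19.5%), both shares below the background. Rb1, the retinoblastoma protein, had 563, 536 and 529 in treated cultures, against 316, 299 and 223 in controls (log2 change 0.95 ± 0.13, adjusted p = 0.000422). Its relatives Rbl2, p130, and Rbl1, p107, changed by -0.71 ± 0.13 (adjusted p = 0.00191) and -0.67 ± 0.17 (adjusted p = 0.0131). Lin52 changed by 0.95 ± 0.40 with groups apart, but was not called. The MuvB genes Lin9, Lin37, Lin52, Lin54 and Rbbp4 were not called, with adjusted p-values from 0.091 for Lin52 to 0.871 for Lin9.

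Genes of the preceding phase, origin licensing and replication, were called in both directions, as all genes were: of 19 tested 6 were lower (31.6%, against 21.6%) and 3 higher (15.8%, against 19.5%), with a median log2 change of -0.03. Rrm2, a ribonucleotide reductase subunit, had 2194, 2292 and 1772 in treated cultures, against 1138, 935 and 799 in controls (1.12 ± 0.14, adjusted p = 0.0002). The E-type cyclins Ccne2 and Ccne1, which act at the start of S phase, changed by 0.65 ± 0.12 (adjusted p = 0.00256) and 0.39 ± 0.12 (adjusted p = 0.0261), and the helicase subunit Mcm6 by -0.66 ± 0.13 (adjusted p = 0.00258). In 4 of the 19, the 3 called higher among them, all treated arrays lay above all controls, against 3060 of all 12194 genes.

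Markers of cell types were also among the genes called, where of all genes 21.6% were lower and 19.5% higher. In a list with 3 or 4 tested genes, 1 call is too few to set against these shares. All 8 fibroblast markers were above the array median on every array. Passing this filter does not by itself name a cell type, since 6 of 7 melanocyte markers were tested too. Of the 8, 7 were lower (87.5%) and Vim was not called. Their summed signal was 23400 to 28300 on treated and 50520 to 58270 on control arrays. The treated means of Lum, Pdgfra and Dcn were 7.73%, 10.9% and 19.9% of the control means. Of 6 skeletal muscle markers 3 were tested and all 3 were higher, with Myf5 and Myog below the array median on every array and a sum of 4694 to 5440 on treated and 667.8 to 851.3 on control arrays. That sum was mostly Acta1, with 5053, 4503 and 4255 in treated cultures, against 646, 524 and 478 in controls. Of 7 keratinocyte markers 1 of 3 tested was higher, Dsp, and Krt1, Krt14, Krt15 and Trp63 were below the median everywhere, while Dsp was above it on treated arrays alone and so was tested only through the group where it was higher (sums 395.7 to 605.8 treated, 206.9 to 313.1 control). Of 7 leukocyte markers 1 of 3 tested was higher, Cd68, with Ptprc, Itgam, Aif1 and Cd3e below the median everywhere (654.1 to 789.5 treated, 530 to 595.4 control). Endothelial (278 to 380.4 treated, 298.7 to 346.9 control) and melanocyte markers (500.1 to 658.3 treated, 531.3 to 689.6 control) had overlapping sums. In these lists 1 of 4 and 0 of 6 tested genes were higher and 1 in each was lower, with Pecam1, Tie1 and Mlana below the median on every array. The endothelial genes called, Cdh5 higher and Tek lower, also passed the filter only through the group where each was higher. The part of other cell types in the lower mitosis genes was not tested.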

How the data were processed

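Expression was measured on 6 arrays, 3 of treated and 3 of control cultures. The deposited values are signal intensities, linear and with no negative value, made with MAS5 per the submitters' processing notes; the sources used here give no version, target intensity or detection call for it. The 64 control probe sets were left out. Each array was scaled to the mean of the 2% trimmed means, 193.2, and transformed to log2(signal + 9.66). A probe set was tested if it exceeded its array median on at least 3 arrays, which left 23388 of 45037. Groups were compared with limma 3.58.1 under R 4.3.3 (lmFit, eBayes with trend, group as the sole term, two-sided, Benjamini-Hochberg). The procedure was tested on simulated data with changes drawn among probe sets above the median on all control arrays, like the members. An earlier draw that also took dimmer probe sets recovered fewer of the changes, fell short of the recovery required and was replaced. Recovery for dimmer probe sets is thus lower than in the kept test, and a gene not called may still have changed. The number of arrays limits the precision.

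Genes were named through the platform annotation, from probe sets with 1 gene, and 12194 genes were tested. In each group of members the 3 with the smallest p, and every member not called, have array values; in other lists up to 3 genes with the smallest p and those called against the majority are named. Other members are named with their fitted change, and the array values of Cdk1, Bub1b and a dimmer probe set of Kif2c were added after they were seen. The members, lists and tests were chosen with earlier results of these data known. The motifs, the use of the first RefSeq entry of a gene, the promoters printed and their length, the comparisons with control 3 and the split of other genes by motif were chosen after the data were seen, the printed length after motif positions were known. Alternatives were other scalings, pseudocounts, filters, probe sets, variance and block terms, and each array left out.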

Additional observations from a re-analysis of the deposited data

How the results depend on the processing

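The members called lower numbered 38, and between 32 and 41 under the 9 alternatives that keep all arrays, and between 31 and 40 with 1 array left out. The number called higher was 0 in each of these. Of the 38, 24 were lower under every alternative run and 29 with any 1 array left out. Of the other 9 in the second count, 8 lost their call and Ttk no longer passed the filter without a control array. Bub1b, in both counts, passed the filter on control arrays alone when treated replicate 1 was left out. Cenpe, also in both, did so at its dimmest tested probe set, an alternative that bears on the 24 only. Those 2 calls are no support. The count for kinesins and spindle was 5, and 3 with no filter, where more probe sets share the adjustment; with 1 array left out it was between 3 and 5, and 3 without control replicate 2 or treated replicate 2. The other counts by group of functions stayed within 1.5 times. With the signals unscaled, 33 members were lower, and over all genes 1646 were lower and 1088 higher, against 2630 and 2378 after scaling. With the replicate block 41 members were lower, the 38 among them, and deviations from the group mean correlated by 0.181, 0.17 and 0.0846 for equal numbers, each above those for unequal numbers, a hint from the data only; the labels do not say whether a number stands for 1 explant. Changes with the dimmest tested probe set had the opposite sign for Nek2 (0.17), Spc25 (0.16), Kif2c (0.13) and Ncapd2 (0.44). With 1 array left out, Tpx2 changed by between -0.26 and 0.00258, the highest without treated replicate 3, and Mad2l1 by between -0.0723, without control replicate 3, and 0.25. None of these 6 was called in that setting, and the cause was not tested.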
